A study of Mus musculus with 9 samples.

Results

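The genes described here are 10 members of the immediate early group: Fos, Fosb, Jun, Junb, Egr1, Maff, Klf2, Atf3, Ier2 and Myc. They were taken by symbol from the platform annotation, which mapped 11 probe sets to them, 2 for Jun and 1 for each of the others. They are 10 of the 12394 genes on the chip. All 11 probe sets passed the filter on detection, and all but that of Fosb were detected on all 9 arrays. RNA was taken from whole lungs of C57BL/6 mice, at 24 h and at 48 h after exosomes of the mouse melanoma line B16-F10 (10 µg of protein) had been given through the tail vein, and from control lungs. Exosomes are vesicles shed by cells, able to deliver protein and RNA elsewhere. Each of the 3 groups was read on 3 single-colour Affymetrix arrays, numbered replicates 1 to 3. The labels give neither the age of the mice nor what the control mice received, and do not say whether an array held 1 mouse or a pool, so the tests measure the spread between these samples. Lungs were kept in RNAlater, and the labels do not give the time from death to RNAlater.

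Immediate early genes are switched on within minutes of a stimulus, without new protein synthesis, by kinase cascades acting on factors such as SRF, the ELK family and CREB. Fos, Fosb, Jun and Junb encode subunits of AP-1, a dimer of basic leucine zipper proteins. Maff encodes a small Maf protein that lacks an activation domain, and Atf3 a stress-induced factor of the ATF/CREB family. Egr1 and Klf2 encode zinc finger factors, of which Klf2 is best known from endothelial cells exposed to blood flow. Myc encodes a factor of cell growth, and Ier2 a small nuclear protein of the same early response. Many of these transcripts are also known to accumulate while a tissue is removed and handled.

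Of all probe sets, 69.9% to 72.6% were called present, and the median signal ran between 173.5 and 184.9 units over the 9 arrays. Lung identity was borne out by markers: surfactant genes Sftpa1 and Sftpb, the alveolar type 1 gene Ager and the club cell gene Scgb1a1 were detected on all 9 arrays. Of 8 measured pigment cell genes, Dct, Pmel and Slc45a2 were detected on 0 arrays, whereas Mitf was detected on 9 and Sox10 on 8. In each group replicate 1 stood apart: on the first principal component (41.9% of the variance) these 3 arrays scored between -25.96 and -24.45, and the other 6 between 4.67 and 18.04. Labels are in conflict between sources: in the authors' table for the whole series, each column held the values of a sample file with another label. The groups below follow the sample files, whose internal names match their labels. Under the labels of that table, a comparison of 48 h with control would set the 24 h files against the 48 h files, and all 10 members then have the opposite sign at 48 h. In whole lung, fewer cells of a type and less RNA per cell cannot be told apart.

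The stretch around the transcription start was available for 7 of the 10 members, with 9 promoters in all, from RefSeq (GRCm38.p6), each covering 250 bases before and 50 after a start. The 4 shown belong to Fos, which had the largest SD of log2 level over the 9 arrays, Fosb, which differed most between the times, Maff, which had the smallest unadjusted p at 48 h, and Atf3, whose values ran most closely with those of Egr1. They lie at chr12:85473640-85473939 (plus strand) for Fos, chr7:19309996-19310295 (minus strand) for Fosb, chr15:79347270-79347569 (plus strand) for Maff, which has 3 listed starts, and chr1:191183284-191183583 (minus strand) for Atf3. Capitals mark matches to the motifs searched, on either strand, and each line reads 5′ to 3′ in the direction of the gene.
Fos: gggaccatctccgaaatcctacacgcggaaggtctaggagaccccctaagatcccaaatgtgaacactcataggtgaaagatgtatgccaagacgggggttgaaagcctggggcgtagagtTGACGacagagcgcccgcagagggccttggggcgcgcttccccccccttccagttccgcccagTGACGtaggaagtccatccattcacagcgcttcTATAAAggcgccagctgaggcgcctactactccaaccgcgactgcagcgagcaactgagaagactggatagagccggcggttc
Fosb: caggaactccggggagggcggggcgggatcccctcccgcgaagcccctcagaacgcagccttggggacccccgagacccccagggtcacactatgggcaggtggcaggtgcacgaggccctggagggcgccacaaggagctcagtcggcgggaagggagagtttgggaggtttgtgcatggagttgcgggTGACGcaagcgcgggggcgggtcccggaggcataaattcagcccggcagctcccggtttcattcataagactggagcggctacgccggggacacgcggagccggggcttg
Maff: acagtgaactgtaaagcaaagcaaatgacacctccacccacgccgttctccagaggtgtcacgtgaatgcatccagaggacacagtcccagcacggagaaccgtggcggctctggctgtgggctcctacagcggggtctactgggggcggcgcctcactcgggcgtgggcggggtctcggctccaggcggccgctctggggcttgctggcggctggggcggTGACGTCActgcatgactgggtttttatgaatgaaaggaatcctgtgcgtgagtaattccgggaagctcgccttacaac
Atf3: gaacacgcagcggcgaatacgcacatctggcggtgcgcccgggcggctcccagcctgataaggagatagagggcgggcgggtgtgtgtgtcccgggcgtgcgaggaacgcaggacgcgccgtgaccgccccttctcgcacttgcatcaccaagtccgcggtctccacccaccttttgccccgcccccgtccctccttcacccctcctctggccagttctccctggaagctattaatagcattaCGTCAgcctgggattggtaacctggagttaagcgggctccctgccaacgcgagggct

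The full cyclic AMP response element, TGACGTCA, which CREB and ATF proteins bind, was found in 1 member, at 29 bases before the Maff start shown, and in 1.79% of 32851 mouse promoters of the same length. Its core TGACG, part of the longer motif, stood in 7 of the 9 promoters, from 6 of the 7 genes, and in 20.8% of all promoters. In Fos it lay 129 and 66 bases before the start, in Fosb 60, in Junb 106, and in Atf3 it lay 7 bases before the start on the opposite strand. This core was searched after the sequences had been seen. The letters TATAAA, those of a TATA box, occurred 33 bases before the Fos start and at the Junb start, in 2 genes, and in 13.6% of all promoters. Neither the CArG box, the site of SRF, nor the AP-1 site TGANTCA was found in these windows. Their shares over all promoters were 1.63% and 7.81%. A match describes the letters only, and sites further from the start lie outside these windows.

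At 24 h the immediate early genes stood close to control, and at 48 h each had a higher mean than control, by small amounts. At 24 h 3 of the 10 were above control, Maff, Klf2 and Myc, with a median log2 difference of -0.0322, against 0.000289 over all 15886 probe sets tested, of which 50.1% were above control. At 48 h 10 of the 10 were above control, with a median of 0.24, against -0.00226 over all probe sets, of which 49.2% were above. Both comparisons use the same control arrays, so they are not independent. The members were chosen with earlier results of these data known, and 33 of 45 pairs of them were positively correlated over the arrays. In all 3 comparisons the counts of members are therefore a description, not a test. No member passed the test at either time with limma (0 of 10 at each, adjusted p = 1 for each member), and neither did any other probe set (0%). At an unadjusted p under 0.05, 0 members passed at 24 h, beside 1.16% of all probe sets, and 0 at 48 h, beside 1.39%. The count at 48 h was 2 of 10 with the replicate number as a block, beside 4.65% of all probe sets. It was 4 of 10 without control replicate 1, where 421 of 16054 probe sets passed. That array was the highest control array for Fos, Fosb, Jun, Egr1, Maff, Klf2 and Atf3, and the lowest for Junb, Ier2 and Myc. Without the 3 replicate 1 arrays the count was also 4 of 10, where 473 of 16227 passed. Without 48 h replicate 2 and without control replicate 3 it was 1 of 10, where 487 of 16021 and 214 of 16035 passed. The count was 0 with any other single array left out, with offsets of 1 or 64 or without quantile normalisation. In these fits 175 to 309 probe sets passed. At 24 h the count was 2 of 10 without the 3 replicate 1 arrays, where 426 of 16227 probe sets passed. It was 1 of 10 without control replicate 3, where 168 of 16035 did. The 3 arrays of a time point and those of control overlapped for all 10 members. Over all probe sets, 1.98% lay wholly above control and 1.93% wholly below at 24 h, and 2.39% and 2.12% at 48 h.

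**Figure D1:**
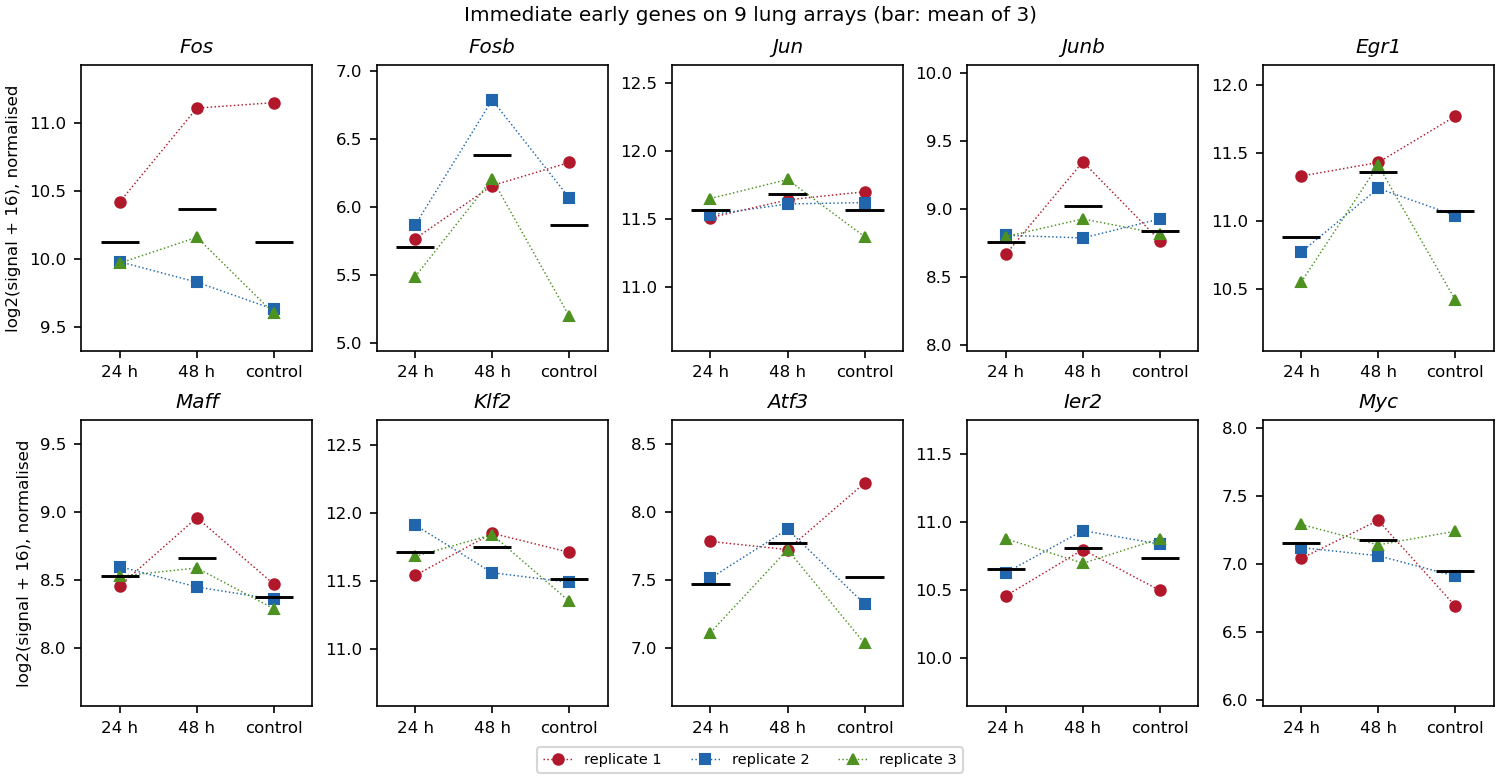
Normalised level, log2(signal + 16), of each of the 10 genes on the 9 arrays, by group on the horizontal axis; points of the same colour and shape share a replicate number, dotted lines join them, and the bar is the mean of 3. Axes span the same number of log2 units in every panel, and the replicate 1 arrays lie above the other 6 for Fos, at 1350.2 units or more against 1111.5 or less.

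Fos encodes the founding AP-1 subunit, whose protein cannot pair with itself and joins a Jun protein. Its deposited signal, in linear units for replicates 1, 2 and 3, was 1350.2, 988.8 and 975.3 at 24 h, 2219.9, 902.6 and 1111.5 at 48 h, and 2234.8, 779.6 and 763.1 in control lungs. In each group replicate 1 was the highest, and the 3 groups overlapped. On the normalised scale, where fold changes are those of the signal plus an offset of 16 and understate the change of dim genes, Fos stood at 0.996-fold of control at 24 h (95% CI 0.509 to 1.95) and 1.18-fold at 48 h (0.604 to 2.32). Single arrays turned the sign: without 48 h replicate 1 the log2 difference at 48 h was -0.13, without control replicate 2 it was -0.006 and without control replicate 3 it was -0.02, whereas without control replicate 1 it was 0.755.

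Fosb, the dimmest of these probe sets by detection (7 of 9 arrays), encodes a Fos relative whose protein also needs a Jun partner. It read 39.5, 41.1 and 30.1 units at 24 h, 53.7, 88.9 and 63.1 units at 48 h, and 66.7, 50.3 and 21.5 units in control lungs. All 3 arrays at 48 h were above all 3 at 24 h, while control reached from the lowest of the 9 values to above 48 h replicate 3, and the arrays without detection were 24 h replicate 3 and control replicate 3. Fosb was detected on 3 of 3 arrays at 48 h, and on 2 of 3 at 24 h and in control lungs. It therefore entered the test only through the 48 h group, where it was highest. Fosb was 0.899-fold of control at 24 h (95% CI 0.582 to 1.39) and 1.44-fold at 48 h (0.93 to 2.22). Without control replicate 3, the lowest array, the log2 difference at 48 h was 0.192, and without control replicate 1 it was 0.75.

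Jun and Junb encode the partners of the Fos proteins, and Junb can hold back some of the targets that Jun activates. Jun, by its brighter probe set, read 2851.2, 2994.5 and 3211.7 units at 24 h, 3192.4, 3150.9 and 3527.7 units at 48 h, and 3236.3, 3129.4 and 2607.8 units in control lungs. These arrays lay within 1.35 times of each other, the narrowest spread of the 10 genes. The fold against control was 0.999 at 24 h (95% CI 0.83 to 1.2) and 1.09 at 48 h (0.903 to 1.31). The other Jun probe set ran between 1467.7 and 2016.7 units and gave 1.07-fold at both times (0.875 to 1.3 at 24 h, 0.878 to 1.31 at 48 h).

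Junb read 393.7, 424.6 and 430.2 units at 24 h, 637.0, 420.8 and 468.8 units at 48 h, and 432.5, 471.0 and 440.3 units in control lungs. Before normalisation the 24 h arrays lay just below the control arrays, after it the groups overlapped, and 48 h replicate 1 stood alone at the top. The fold was 0.947 at 24 h (95% CI 0.754 to 1.19) and 1.14 at 48 h (0.907 to 1.43). Without 48 h replicate 1 the log2 difference at 48 h was 0.025. On that same array the 9 tested neutrophil markers summed to 29497 units, against 7685 to 15960 on the other 8. By group these sums ran between 8480 and 13579 units at 24 h, 7685 and 29497 at 48 h, and 11210 and 15960 in control lungs, with 0 of 9 markers above control at 24 h and 6 of 9 at 48 h. S100a8 and S100a9, the most abundant neutrophil proteins, were detected on all 9 arrays. The part of neutrophil RNA in the Junb value was not tested.

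Maff and Atf3 encode leucine zipper proteins outside the Fos and Jun families. Maff read 341.2, 363.9 and 354.3 units at 24 h, 480.2, 329.8 and 369.9 units at 48 h, and 345.3, 311.6 and 301.7 units in control lungs. Control lungs held the 2 lowest arrays, and 48 h replicate 1 the highest. The fold was 1.11 at 24 h (95% CI 0.898 to 1.38) and 1.23 at 48 h (0.99 to 1.52), where the log2 difference was 0.151 without 48 h replicate 1.

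Atf3 read 205.2, 160.9 and 124.5 units at 24 h, 189.5, 212.7 and 198.3 units at 48 h, and 286.7, 141.9 and 116.9 units in control lungs. The 48 h arrays lay close together, inside a control group whose highest array was 2.45 times its lowest. Atf3 was 0.96-fold of control at 24 h (95% CI 0.623 to 1.48) and 1.19-fold at 48 h (0.771 to 1.83). The value at 48 h moved to a log2 difference of 0.003 without control replicate 3 and 0.596 without control replicate 1.

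Egr1, a zinc finger factor that binds GC-rich promoters, read 2541.9, 1731.5 and 1471.2 units at 24 h, 2737.3, 2441.8 and 2688.0 units at 48 h, and 3391.2, 2093.3 and 1353.3 units in control lungs. As for Atf3, the 48 h arrays were tightly grouped (SD 0.10 on the log2 scale, n = 3) and the control arrays were wide apart (SD 0.68, n = 3), enclosing the others. The fold was 0.875 at 24 h (95% CI 0.541 to 1.41) and 1.22 at 48 h (0.753 to 1.97). Its sign at 48 h turned to a log2 difference of -0.048 without control replicate 3.

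Klf2, a regulator of the quiescent state of endothelium and of lymphocytes, read 2923.2, 3925.8 and 3294.0 units at 24 h, 3673.1, 3043.7 and 3689.2 units at 48 h, and 3248.2, 2874.4 and 2569.6 units in control lungs. The upper arrays came from both times after injection and the lowest 2 from control lungs, with overlap at each time. Klf2 was 1.15-fold of control at 24 h (95% CI 0.915 to 1.44) and 1.18-fold at 48 h (0.94 to 1.48).

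Ier2 read 1393.9, 1557.7 and 1860.0 units at 24 h, 1794.1, 1961.4 and 1629.0 units at 48 h, and 1435.8, 1809.8 and 1853.6 units in control lungs, and the groups were interleaved. Its fold was 0.944 at 24 h (95% CI 0.748 to 1.19) and 1.05 at 48 h (0.835 to 1.33). Myc read 117.1, 118.2 and 142.3 units at 24 h, 139.5, 113.0 and 129.0 units at 48 h, and 91.1, 103.0 and 137.3 units in control lungs. The 2 lowest Myc arrays were control replicates 1 and 2. The fold of Myc was 1.15 at 24 h (95% CI 0.909 to 1.46) and 1.17 at 48 h (0.924 to 1.49). The log2 difference was 0.205 at 24 h and 0.228 at 48 h with all arrays, 0.077 and 0.101 without control replicate 1, and 0.353 and 0.376 without control replicate 3.

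Between the times, at 48 h against 24 h, all 10 members had the higher mean at 48 h, with a median log2 difference of 0.203, against -0.00365 over all probe sets, of which 48.9% were higher. Fosb differed most, at 1.6-fold (95% CI 1.03 to 2.47, limma adjusted p = 1), and was the 1 member whose arrays did not overlap. Since Fosb entered the test only through detection at 48 h, the filter and this difference are not independent. Over all probe sets, 2.48% lay wholly above and 2.08% wholly below in this comparison. Egr1 stood at 1.39-fold (0.861 to 2.25), Atf3 at 1.24-fold (0.804 to 1.91), Junb at 1.2-fold (0.959 to 1.51) and Fos at 1.19-fold (0.607 to 2.33). The other 5, Jun, Maff, Klf2, Ier2 and Myc, lay between 1.02-fold and 1.12-fold. The less bright Jun probe set stood at 1-fold (0.822 to 1.22). No member passed (0 of 10, beside 0% of all probe sets). At an unadjusted p under 0.05, 1 of 10 passed, Fosb, beside 1.77% of all probe sets. That count was 0 without 24 h replicate 1, where 426 of 15983 probe sets passed, and 0 without 24 h replicate 3, where 456 of 15978 did. It was 3 without the 3 arrays numbered 1, where 503 of 16227 probe sets passed. With detection asked for on all 9 arrays, which leaves Fosb out, it was 0, where 239 of 14771 passed.

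By the brightest probe set of each gene, the order of the group means was therefore 48 h on top in all 10 genes. The lead over 24 h was as small as 0.02 for Myc and 0.04 for Klf2 on the log2 scale. The other Jun probe set had the same mean, 10.81, at 48 h and at 24 h. Below 48 h, the 24 h mean exceeded control for Maff, Klf2 and Myc, and control exceeded 24 h for Fosb, Junb, Egr1, Atf3 and Ier2. The means at 24 h and in control lungs were level for Fos and Jun, within 0.01 on the log2 scale. No neighbours in this order differed past the threshold, and of all pairs of groups only 48 h and 24 h for Fosb, which are not neighbours in its order, had arrays without overlap.

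**Figure D2:**
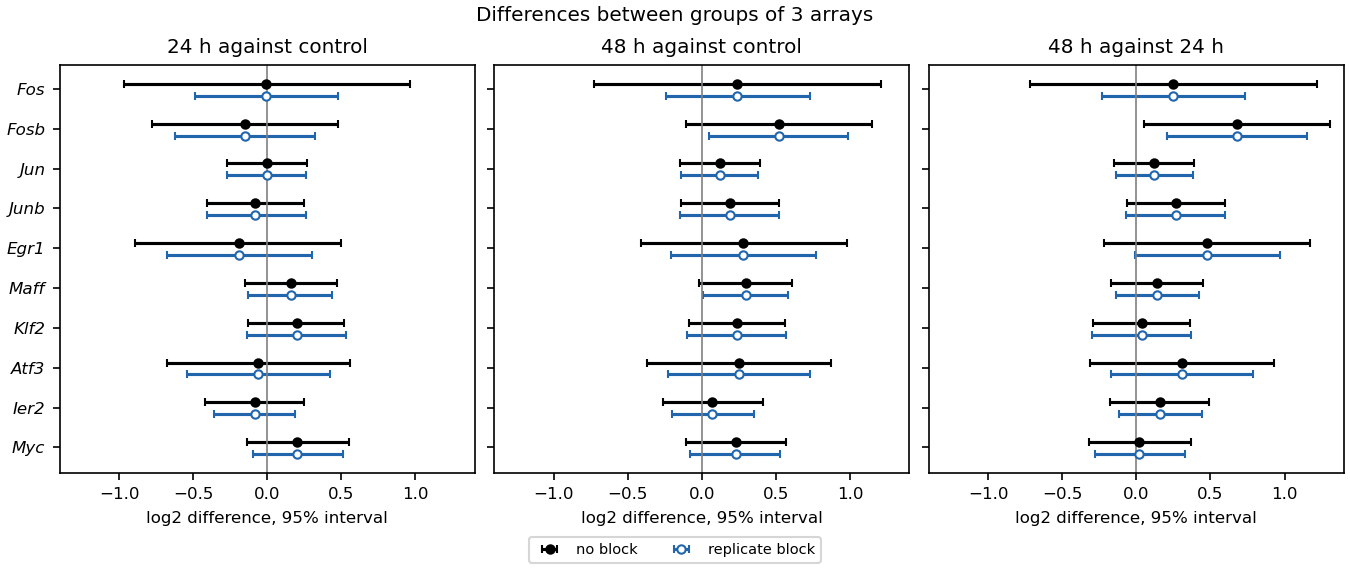
Log2 difference (points) with its 95% interval (bars) for each gene in the 3 comparisons, from the model without the replicate number (filled) and with it as a block (open). In the model without the block, Fosb at 48 h against 24 h is the 1 interval that leaves out 0, with a fold of 1.6 (1.03 to 2.47).

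The labels number the replicates alike in all 3 groups, and arrays of the same number deviated together, so each time point was also set against the control array of its own number. At 24 h 1 member was above control in pair 1, 5 in pair 2 and 8 in pair 3. At 48 h the counts were 5, 8 and 8 of 10, and the median log2 differences were 0.0539, 0.129 and 0.455. The sign differed between pairs for 7 of 10 members at 24 h and for 8 of 10 at 48 h. At 24 h Myc was above control in all 3 pairs (1.27-fold, 1.16-fold and 1.04-fold), and Junb and Ier2 below it in all 3, among 10.9% of all probe sets above and 10.8% below in every pair. At 48 h Maff (1.4-fold, 1.07-fold and 1.23-fold) and Klf2 (1.1-fold, 1.05-fold and 1.41-fold) were above control in all 3, among 11.5% above and 12.2% below. At 48 h against 24 h this held for Fosb, Egr1 and the brighter probe set of Jun, among 13.1% higher and 14.8% lower. The other Jun probe set was at 0.9-fold in pair 2.

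With the replicate number as a block, the estimates stayed as they were and the intervals of the more variable members narrowed. Fosb at 48 h was then 1.44-fold with a 95% CI of 1.04 to 1.99, Maff at 48 h 1.23-fold with 1.01 to 1.5, and Fos at 48 h had an SE of 0.21 in place of 0.43 on the log2 scale. In this fit 0 members passed in any comparison (adjusted p at or above 0.779 for every member), beside 0% of all probe sets. At an unadjusted p under 0.05 it gave 0 members at 24 h beside 3.48% of all probe sets, 2 at 48 h (Fosb and Maff, beside 4.65%), and 1 between the times (Fosb, beside 5.57%).

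**Figure D3:**
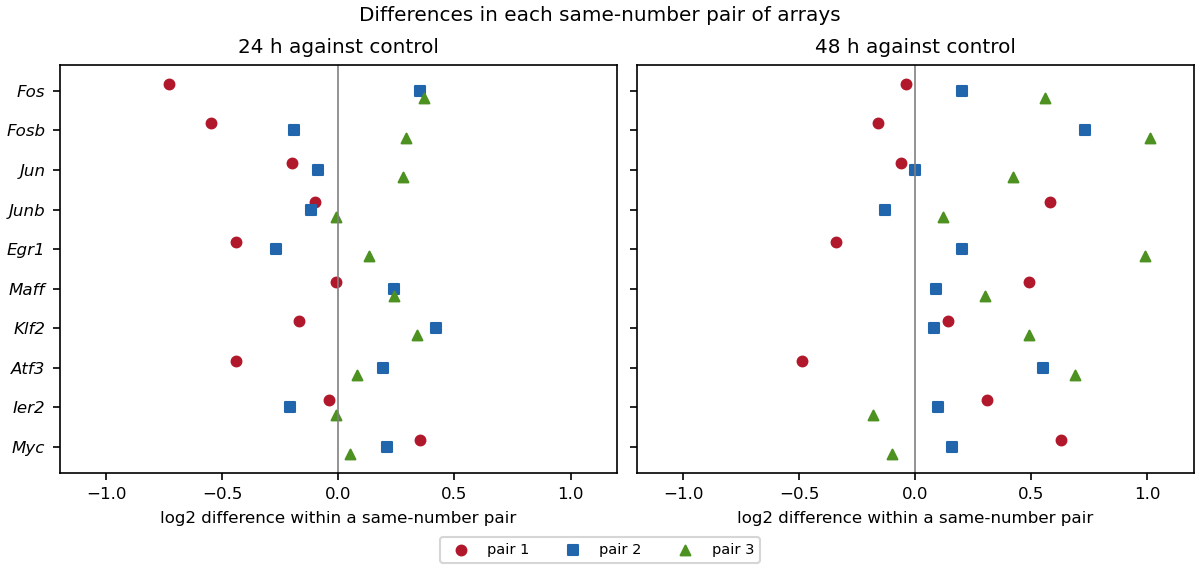
Log2 difference between each time point and the control array of the same replicate number, for the 10 genes. Pair 1 lies below 0 for 9 of 10 genes at 24 h and pair 3 above 0 for 8 of 10, and at 48 h Maff and Klf2 are above 0 in all 3 pairs.

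The genes differed in how their variation divided between group, replicate number and the rest, as shares of the sum of squares over the 9 arrays. For Fos 79.3% fell to the replicate number and 4.45% to the group. Egr1 and Atf3 followed, with 50.3% and 49.5% on the replicate number, and Ier2 had 41.4%. Over all tested probe sets the medians were 51.6% for the replicate number and 11.7% for the group, so Egr1, Atf3 and Ier2 were near the usual share. The replicate number held 1.3% of the variation of Jun, 3.15% of that of Klf2 and 4.69% of that of Junb. The group share was highest for Maff (44.8%) and Fosb (42.5%). The spread within groups was at percentile 98.8 of all tested probe sets for Fos, 95.4 for Egr1, 93.1 for Fosb and 92.9 for Atf3, whereas Jun was at percentile 19.2.

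**Figure D4:**
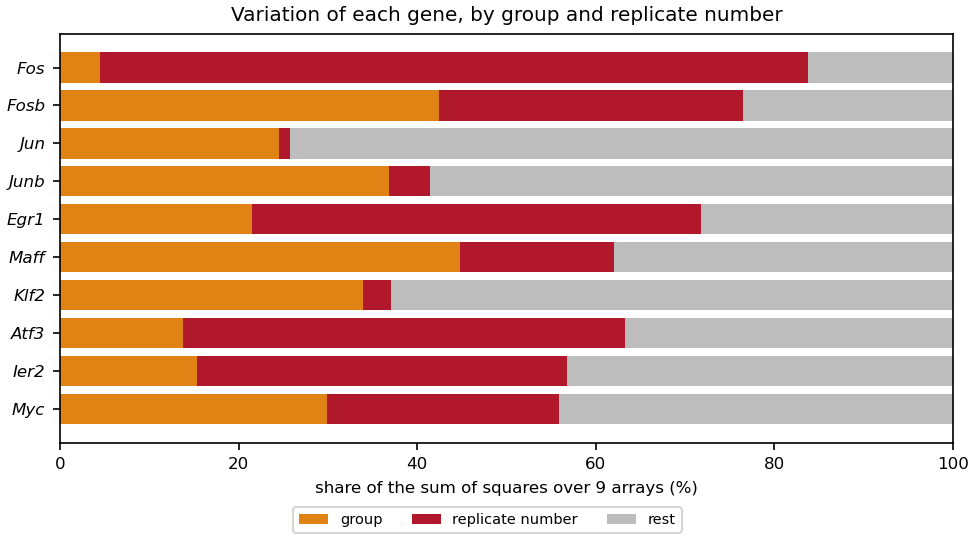
Share of each gene's sum of squares over 9 arrays that falls to the group, to the replicate number and to the rest, in percent. Fos has 79.3% on the replicate number, whereas Maff and Fosb have the largest shares on the group, 44.8% and 42.5%.

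On the 3 arrays numbered replicate 1, Fos lay between 1350.2 and 2234.8 units, above the 763.1 to 1111.5 units of the other 6, with no overlap. Egr1 (2541.9 to 3391.2 against 1353.3 to 2688.0 units) and Atf3 (189.5 to 286.7 against 116.9 to 212.7 units) leaned the same way with overlap. Ier2 leaned the other way, also with overlap (1393.9 to 1794.1 against 1557.7 to 1961.4 units). The ranges of Fosb, Jun, Junb, Maff, Klf2 and Myc overlapped too. The 13 tested heat shock and dissociation stress genes had a mean log2 level of 11.2 to 11.49 on the replicate 1 arrays, against 10.61 to 10.92 on the other 6. Their summed signal by group was 34755 to 42172 units at 24 h, 33288 to 46201 units at 48 h, and 31379 to 46320 units in control lungs, so the groups overlapped. Other lists also separated these arrays from the other 6 without overlap, by mean log2 level. Fibroblast markers (11.36 to 11.46 against 11.11 to 11.22) and AP-1 and leucine zipper partners (9.84 to 9.91 against 9.73 to 9.8) were higher on the replicate 1 arrays. Markers of alveolar type 2 cells (12.45 on each against 12.57 to 12.68) and alveolar type 1 cells (12.17 to 12.27 against 12.31 to 12.5) were lower on them. So were those of alveolar macrophages and myeloid cells (10.3 to 10.31 against 10.34 to 10.61) and of T and natural killer cells (7.01 to 7.26 against 7.3 to 7.52). The ratio of 3′ to 5′ signal of Actb, a measure of RNA integrity, was 1.161 to 1.217 on them, against 1.245 to 1.379 on the others, whereas that of Gapdh overlapped (0.816 to 0.908 against 0.74 to 0.956). The part of tissue handling or of RNA quality in the Fos values was not tested. Without the 3 replicate 1 arrays, Fos had a log2 difference of 0.356 at 24 h and 0.381 at 48 h.

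Over the 9 arrays the gene most like Fos among 9271 others, by Pearson correlation of normalised levels, was Hspa1b, which encodes an inducible Hsp70 chaperone (r = 0.983, Spearman's rho = 0.983). This search was added after the Fos values had been seen. Hspa1b read 1273.2, 582.5 and 654.9 units at 24 h, 3283.0, 507.3 and 1240.1 units at 48 h, and 4109.2, 499.2 and 428.6 units in control lungs. Its arrays repeat the layout of Fos, with replicate 1 on top in every group. Amotl2 (r = 0.982), Ahcyl2 (0.966), Gatad2b (0.965) and Hspa1a (0.96) came next. Hspa1a and Hspa1b are near-identical copies, and their probe sets may share signal. Since the replicate 1 arrays form a cluster of their own, r was also taken over the other 6 arrays, where it was 0.933 for Amotl2, 0.887 for Gatad2b, 0.88 for Hspa1b, 0.705 for Hspa1a and 0.629 for Ahcyl2. These values describe arrays that share replicate number, group and chip, and carry no test. Against control Hspa1b was 0.815-fold at 24 h (95% CI 0.21 to 3.16) and 1.32-fold at 48 h (0.34 to 5.11).

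**Figure D5:**
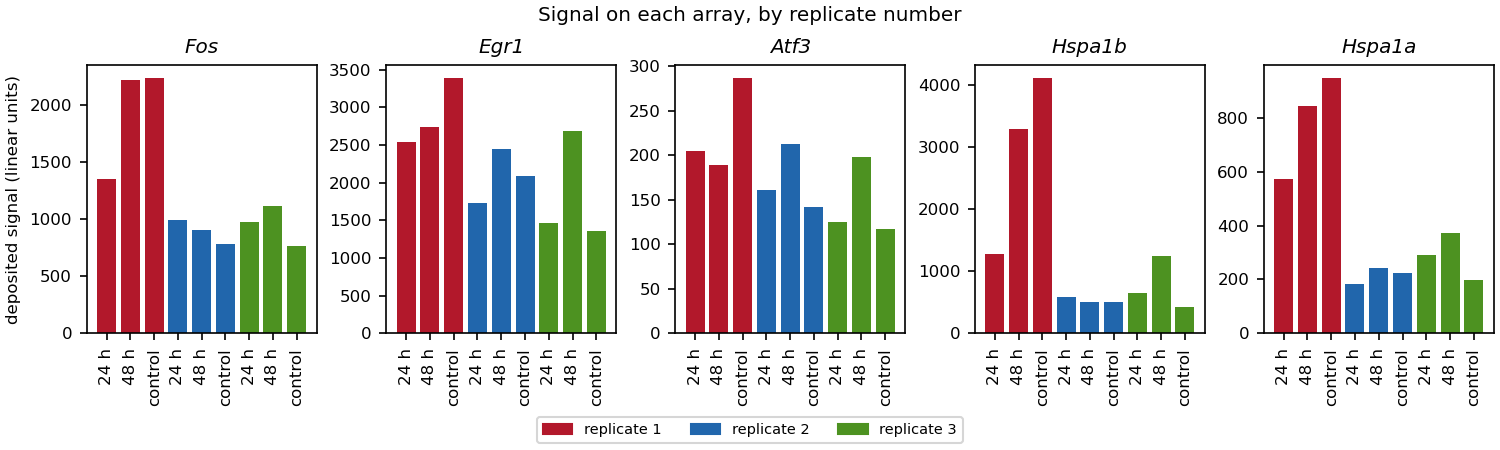
Deposited signal of Fos, Egr1, Atf3, Hspa1b and Hspa1a on each array, in linear units from 0, with the arrays ordered by replicate number and, within a number, as 24 h, 48 h and control. The replicate 1 bars of Fos, Hspa1b and Hspa1a all exceed the bars of the other 6 arrays, while those of Egr1 and Atf3 overlap them.

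The members did not move as a single block across arrays. Of 45 pairs of members, 33 had a positive and 12 a negative correlation over the 9 arrays (median r 0.35), and over the 6 arrays numbered 2 and 3 the counts were again 33 and 12 (median 0.27). The share for pairs of other genes is not given here, so these counts describe the members only. Egr1 and Atf3 ran closest together (r = 0.93 over 9 arrays, 0.88 over those 6), and Fosb went with both (0.75 and 0.78 over 9, 0.88 and 0.93 over 6). Maff and Klf2 formed another close pair (0.79 and 0.98), and over the 6 arrays Fos ran with them, at 0.95 with Maff and 0.9 with Klf2. The correlation of Junb with Maff, 0.79 over 9 arrays, was 0.01 over the 6, which leave out 48 h replicate 1. Ier2 was positively correlated with 2 of the other 9 members and Myc with 4.

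The mean of the standardised values of the 10 members was -0.37, -0.13 and -0.19 SD units at 24 h for replicates 1 to 3, 1.06, 0.2 and 0.46 at 48 h, and 0.24, -0.34 and -0.92 in control lungs. Its 2 highest values were on 48 h arrays and its lowest on control replicate 3. Control replicate 1 exceeded 48 h replicate 2. The genes whose levels followed this mean most closely were Fbxo42, encoding an F-box protein (r = 0.937 over 9 arrays, 0.873 over the 6), Ibtk, encoding an inhibitor of Bruton tyrosine kinase (0.927 and 0.906), Sowaha (0.923 and 0.895), Klhl11 (0.897 and 0.843) and Zfp654 (0.884 and 0.906). Sowaha was dim, at 8.4 to 33.5 units. These genes were picked as the closest of 9271 on the same arrays, so the values are a description and carry no test.

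Most other immediate early genes also lay above control at 48 h, by small amounts. Of 42 listed, 35 were tested. Of these, 21 were above control at 24 h (median log2 difference 0.0429) and 25 at 48 h (median 0.0739), and 0 passed in either direction. The 3 with the largest moderated t at 48 h, none past the threshold, were Ccn1, a matricellular protein induced through SRF, at 1.37-fold (95% CI 1.03 to 1.82), Socs3, an inhibitor of cytokine signalling, at 1.27-fold (0.899 to 1.81), and Rgs2, which shortens G protein signals, at 0.838-fold (0.644 to 1.09). Ccn1 read 1396.1, 1418.6 and 1063.5 units at 24 h, 1924.8, 1781.8 and 1889.4 units at 48 h, and 1808.3, 1221.0 and 1115.0 units in control lungs. Of its 48 h arrays, 2 lay above the highest control array and 1 below it.

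Among 16 tested AP-1 and leucine zipper partners, 6 were above control at 24 h and 9 at 48 h (median log2 difference 0.026). Mafk, a small Maf protein like Maff, was at 1.23-fold at 48 h (95% CI 1.01 to 1.51), Atf7 at 0.855-fold and Mafg at 0.894-fold. Among 22 upstream kinases and factors, 9 and 10 were above control at 24 h and 48 h, with Creb1 at 0.796-fold at 48 h (0.597 to 1.06), Mef2c at 0.841-fold and Mapk7 at 0.831-fold. None of these genes passed.

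Among corepressors, partners and downstream genes of single members, none passed either. Of 9 Egr corepressors and targets, 3 were above control at 24 h and 6 at 48 h. Among these Pdgfb, a growth factor, was at 1.1-fold at 48 h, Nab2, which restrains Egr proteins, at 1.11-fold and Egr2 at 0.922-fold. Of 11 Klf2-responsive endothelial genes, 4 and 5 were above control at 24 h and 48 h. This list mixes genes that Klf2 induces with genes that it represses, so the count gives no direction for Klf2. It shares Kdr, Tek, Cdh5 and Pecam1 with the endothelial markers below. Nos3, the endothelial nitric oxide synthase that Klf2 induces, was at 0.913-fold at 48 h (95% CI 0.709 to 1.17), and Edn1, which Klf2 represses, at 0.873-fold (0.571 to 1.34). Flt1, a receptor of vascular growth factor, was at 0.923-fold. Of 10 Myc partners, 3 were above control at each time, with Zbtb17, through which Myc represses genes, at 0.885-fold, and the Max-binding Mga at 0.939-fold and Mxd3 at 0.837-fold at 48 h. Of 20 Myc-responsive genes, 10 and 7 were above control. Ppat of purine synthesis stood at 1.12-fold at 48 h, Rrs1 of ribosome assembly at 1.1-fold and Odc1 of polyamine synthesis at 1.06-fold. In each of these lists 0 genes passed in either direction at either time.

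Stress-related lists, which share triggers with the immediate early genes, also held 0 genes past the threshold. Of 13 heat shock genes, 8 were above control at 24 h and 10 at 48 h, where Hspa5, a chaperone of the endoplasmic reticulum, was at 1.12-fold, Dnajb4 at 1.12-fold and Hsp90aa1 at 1.1-fold. Of 18 glucocorticoid-responsive genes, 15 were above control at each time (median log2 difference 0.0529 at 24 h and 0.122 at 48 h). At 48 h the metallothionein Mt2 was at 1.24-fold (95% CI 1.01 to 1.52), the mitochondrial kinase Pdk4 at 1.45-fold (0.889 to 2.35) and Errfi1, an inhibitor of EGF receptors, at 1.21-fold (0.902 to 1.63). Of 14 hypoxia genes, 6 were above control at 24 h and 10 at 48 h, with Car9 at 0.805-fold, Bnip3 at 1.07-fold and Pgk1 at 1.06-fold at 48 h. The glucocorticoid list shares Sgk1, Nfkbia, Dusp1, Klf9 and Cebpd with the list of other immediate early genes.

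The cell type markers below also held 0 genes past the threshold. The 14 endothelial markers, from the cells in which Klf2 is best known, had 4 above control at both times, with Pecam1 at 0.934-fold and Cdh5 at 0.899-fold at 24 h, and 1.06-fold and 1.01-fold at 48 h. Their summed signal was 43411 to 46774 units at 24 h, 44083 to 46447 units at 48 h, and 42984 to 48225 units in control lungs. In the comparison of 48 h with 24 h, in which all 10 members were higher, 9 of 9 neutrophil, 9 of 9 smooth muscle and 6 of 6 erythroid markers had the higher mean too. In the other direction, 10 of 10 B cell, 4 of 4 mesothelial and 3 of 3 skeletal muscle markers had the lower mean. Neutrophil markers summed to 29497, 7685 and 8182 units at 48 h, against 13579, 8480 and 10548 units at 24 h. Only 48 h replicate 1 was above the 24 h arrays in this sum, and the other 48 h arrays were below all 3 of them. B cell markers summed to 2643 to 4090 units at 48 h, against 3943 to 4349 units at 24 h and 3419 to 5132 units in control lungs. Whether these shifts in markers have a part in the levels of the immediate early genes was not tested.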

How the data were processed

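Each deposited sample file lists 22690 probe sets. The authors deposited a linear signal intensity per probe set, scaled on every array to a mean (2% trimmed at each end) of 500.1 to 500.2, as computed from the files, beside a detection p-value. Which steps made the signal is not stated in the labels or headers, and the labels name a larger chip than the files hold. The authors' table of the whole series matched the sample files within 0.051 units (8 columns at every probe set, 1 at 22417), under other labels (24 h columns held control files, 48 h columns 24 h files and control columns 48 h files), and served as an alternative. Replicate numbers differed as well for 24 h columns 1 and 2, which held control files 2 and 1. The replicate numbers used above are those of the sample files. 0 columns of per-sample values stayed unused.

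An offset of 16 was added, log2 taken and arrays quantile normalised. The 64 control probe sets were left out, and 15886 probe sets (9281 genes) that all 3 arrays of some group detected (p below 0.05) entered the test. The fit used R 4.3.3 and limma 3.58.1 with a mean per group over 9 arrays (functions lmFit, then eBayes; two-sided; Benjamini-Hochberg adjusted p under 0.05 over all of them). The fit was tested on simulated data. Symbols came from the platform annotation: 20393 probe sets had 1, 691 several (not named) and 1606 none listed. Each gene was represented by its brightest tested probe set on average. The number of arrays limits the precision.

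The members, the 10 pathway and stress lists and the 16 marker lists were chosen with earlier results of these data known. Named were all members, of each pathway or stress list the genes past the threshold or otherwise the 3 largest by absolute moderated t at 48 h, the 5 genes most like the members' mean, and leading markers. Deviations from group means correlated at 0.275 to 0.651 over the 9 same-number pairs of arrays and at -0.561 to 0.308 over the 18 other pairs between groups, so the replicate number, taken from the labels, was used as a block in an alternative. Other alternatives were offsets of 1 and 64, no filter, detection on all 9 arrays, no quantile normalisation, an intensity trend, fits of only the groups compared, the mean over a gene's probe sets, and arrays left out. Promoters were read from RefSeq sequences of GRCm38.p6 and no genome was used.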

Additional observations from a re-analysis of the deposited data

How the results depend on the processing

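Under each of 21 alternatives, 0 probe sets and 0 members passed in all 3 comparisons (smallest adjusted p 0.995 at 24 h, 0.747 at 48 h and 0.688 for 48 h against 24 h; with the replicate block the count of members was 0 throughout). With the block, unadjusted calls over all probe sets numbered 553 at 24 h, 739 at 48 h and 885 between the times, against 185, 221 and 281 without it. Signs of single members did turn, as log2 differences. With the labels of the authors' table, which set other files against each other, 48 h against control gave Fos -0.248, Fosb -0.677, Jun -0.121, Junb -0.268, Egr1 -0.477, Maff -0.14, Klf2 -0.039, Atf3 -0.309, Ier2 -0.158 and Myc -0.024, and 24 h against control gave Maff -0.296, Klf2 -0.237 and Myc -0.228. Without the 3 replicate 1 arrays, and the same with the replicate block added (that fit was chosen after seeing the data), 24 h gave Fos 0.356, Fosb 0.045, Jun 0.096 and Atf3 0.131, and 48 h gave Junb -0.008 and Ier2 -0.041. Jun at 24 h, at -0.001, was 0.018 without quantile normalisation and 0.047 as the mean of its probe sets. With 1 array left out at a time, the 24 h values ran over -0.269 to 0.506 for Fos, -0.486 to 0.076 for Fosb, -0.099 to 0.069 for Jun, -0.525 to 0.155 for Egr1, -0.305 to 0.287 for Atf3 and -0.205 to 0.013 for Ier2, and the 48 h values over -0.13 to 0.755 for Fos, -0.048 to 0.634 for Egr1 and -0.047 to 0.148 for Ier2. Most of these ends came from leaving out control replicate 1 or 3. The cause of the other turned signs was not tested. With 3 arrays a group the median SE over all probe sets was 0.153 on the log2 scale, or 0.107 with the block, so small differences were not detectable. Of the members, Fos had the largest SE without the block, 0.43, against 0.28 for Fosb. Fosb, detected on 7 arrays, had the fewest detections. It was not tested under the filter that asks for detection on all 9 arrays.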

Other observations

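Cell type lists not described above held 0 genes past the threshold in any comparison. Of 16 cardiac muscle markers, 0 were above control at 24 h and 1 at 48 h, and of 6 erythroid markers 4 and 6 were above it. Of 9 adipocyte markers 7 were above control at both times. Counts above control at 24 h and 48 h were 7 and 6 of 9 for alveolar type 2, 4 and 2 of 7 for alveolar type 1, 2 and 2 of 7 for airway, 8 and 8 of 12 for alveolar macrophage and myeloid, 6 and 1 of 10 for B cell, 7 and 4 of 10 for T and natural killer cell, 6 and 7 of 11 for fibroblast, 2 and 6 of 9 for smooth muscle, 3 and 0 of 3 for skeletal muscle, 3 and 1 of 4 for mesothelial and 1 and 1 of 2 for melanocyte markers. The skeletal muscle gene Mylpf read 660.3 units on 24 h replicate 1 and 37.7 to 65.6 units on the other 8 arrays.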
